A study of Mus musculus with 16 samples.

Results

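Arg1, Retnla, Mrc1 and Ccl24 are genes by which alternatively activated macrophages are commonly recognised. They were found as the probe sets whose gene symbol is one of these 4 names. Each gene had 1 probe set, so the set comprised 4 of the 19752 genes named on the array, and all 4 were among the 10531 genes tested in macrophages. Expression was measured on 16 Affymetrix Mouse Gene 1.0 ST arrays of sorted cells from male mice, in 8 groups of 2 arrays. Treated mice had received 10000 units of IFNα, a type I interferon, under the skin. The study asks, by its title, whether interferon-stimulated genes need IFNAR1, part of the receptor for these interferons, and Tyk2, a kinase that binds the receptor.

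The macrophages were ICAM2+ F4/80+ cells of the peritoneal cavity. The KO groups came from 6-week-old mice labelled B6.129S2-Ifnar1tm1Agt/Mmjax, which carry a targeted Ifnar1 allele. They comprised KO macrophages taken 2 h after IFNα and KO macrophages whose titles name no IFNα. The preparation text of that second pair states the same IFNα injection as the first. The title was followed here. Should the text be correct, IFNα was given to both KO groups. The other groups came from B10.Q/J mice aged 7 weeks, whose strain carries a spontaneous Tyk2 mutation. They comprised macrophages taken 5 h and 2 h after IFNα and macrophages of vehicle-injected mice, with 1 vehicle array at 2 h and 1 at 5 h. Splenic CD4+ T cells (TCRB+ CD4+ CD8-) of B10.Q/J mice at 5 h, at 2 h and with vehicle supplied the background level of each gene. All B10.Q groups share the Tyk2 mutation, and no array of a mouse with Ifnar1 and Tyk2 both intact was included. KO and B10.Q arrays also differ in strain, age and submission lot, and these cannot be told apart. The labels do not say whether paired arrays are from different animals, so the p-values cover only spread among these arrays, which may be technical.

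Alternative activation is the macrophage state that interleukin-4 (IL-4) and IL-13 induce through the receptor chain IL4RA and the transcription factor STAT6. Arg1 encodes arginase 1, which splits arginine into ornithine and urea and so competes with nitric oxide synthase for arginine. Retnla encodes RELMα, a secreted protein of the resistin family. Mrc1 encodes the mannose receptor CD206, an endocytic lectin. Ccl24 encodes eotaxin-2, a chemokine that attracts eosinophils through the receptor CCR3. In the mouse peritoneum, resident macrophages are known to express some of these genes without any deliberate IL-4 stimulus.

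The labelled cell types were checked first. The mean log2 level of 13 peritoneal macrophage markers lay between 11.87 and 12.36 on the 10 macrophage arrays and between 6.82 and 8.53 on the 6 T-cell arrays. The lowest macrophage value belonged to KO IFNα array 1, where the other 9 were at 12.15 or above. In the T cells the 2 arrays at 2 h stood apart, at 8.53 and 7.39 against 6.82 to 6.90 on the other 4, and Fn1, a macrophage-rich transcript, read 11.93 and 9.43 there. The Ifnar1 probe set read 9.93 to 10.31 on the KO arrays and 10.09 to 10.46 on the B10.Q macrophage arrays, so it does not check the genotype. Mx1, an interferon-stimulated antiviral gene, read 6.14 to 6.43 on all 4 KO arrays, 10.47 to 11.87 on the B10.Q IFNα arrays, and 6.15 and 6.12 on the vehicle arrays. The title of T-cell vehicle array 1 carries the code for B cells, and the spleen code appears in 5 of 6 titles of B10.Q macrophages. Cell family and source were followed. Neutrophil marker means were higher on every KO array than on every B10.Q macrophage array, whereas B-cell marker means were not. The mean of 9 neutrophil markers lay at 6.94 to 7.58 on the KO arrays and 6.70 to 6.85 on the B10.Q macrophage arrays, with 6 of the 9 below the array median on every macrophage array. The mean of 6 B-cell markers was 7.69 and 6.78 on the KO IFNα arrays, 7.43 and 6.91 on the KO arrays without IFNα, and 6.73 to 6.80 on the B10.Q macrophage arrays.

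On the GRCm38.p6 annotation, Arg1 lies at chr10:24915207-24927470, Retnla at chr16:48842609-48844461, Mrc1 at chr2:14229414-14332023 and Ccl24 at chr5:135569935-135573123. RefSeq promoter sequence, from 250 bases before to 50 after the start, was found for 2 of the 4 genes, Retnla and Mrc1. They are shown as the regulatory sequence at hand for the members. Capitals mark matches on either strand to motif letters of factors named in alternative activation or interferon signalling, and both runs are on the plus strand.
Retnla promoter (chr16:48842359-48842658): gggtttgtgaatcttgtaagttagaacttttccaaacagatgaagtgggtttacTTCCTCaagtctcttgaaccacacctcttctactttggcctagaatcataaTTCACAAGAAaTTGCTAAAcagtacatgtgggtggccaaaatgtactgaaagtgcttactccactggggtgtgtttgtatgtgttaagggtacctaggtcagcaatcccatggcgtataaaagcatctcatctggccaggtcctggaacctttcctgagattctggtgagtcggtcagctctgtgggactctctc
Mrc1 promoter (chr2:14229164-14229463): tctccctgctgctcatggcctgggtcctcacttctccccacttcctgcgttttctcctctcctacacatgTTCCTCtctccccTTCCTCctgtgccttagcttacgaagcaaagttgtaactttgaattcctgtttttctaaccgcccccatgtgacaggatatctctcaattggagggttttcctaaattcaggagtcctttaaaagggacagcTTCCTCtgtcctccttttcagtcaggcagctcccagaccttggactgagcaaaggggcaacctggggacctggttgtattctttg

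The Retnla window held TTCNNNNGAA, the spacing that STAT6 prefers, at -145 to -136 from the start. A C/EBP core, TTGCNNAA, followed at -134 to -127 without overlapping it, and GAGGAA, a PU.1 core, stood on the minus strand at -196 to -191. Mrc1 held GAGGAA on the minus strand at -180 to -175, -167 to -162 and -35 to -30. Of 32851 promoters of this length, 6.95% held TTCNNNNGAA, 10.8% held TTGCNNAA and 28.3% held GAGGAA. The interferon response core GAAANNGAAA, in 3.44% of promoters, had no match in either window. A match is a description of letters, not a binding site.

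All 4 genes read higher in macrophages than in T cells. With limma, all 4 were called higher in the 6 B10.Q macrophage arrays than in the 6 B10.Q T-cell arrays, where 33.4% of 11161 genes were called higher. Called means an adjusted p under 0.05 after Benjamini-Hochberg correction over all genes tested. Each member was below the array median on all 6 T-cell arrays, so each could be tested only through the macrophage arrays. The filter thus largely fixed the direction of these calls. The 33.4% covers all tested genes, not only those admitted in this way. Differences are on the log2 scale, where 1 unit is a 2-fold change. The difference was 3.79 ± 0.07 for Arg1, 6.53 ± 0.13 for Retnla, 1.99 ± 0.09 for Mrc1 and 4.70 ± 0.13 for Ccl24 (SE, n = 6 arrays each, in 3 groups of 2). These are differences from a background level and may understate the true ones, since no detection call was available. T-cell levels were at 6.64 to 6.87 for Arg1, 6.12 to 6.36 for Mrc1 and 6.58 to 7.01 for Ccl24, all below the median of their own array. Retnla read 4.54 and 4.68 in T cells at 5 h, 6.39 and 5.68 at 2 h, and 4.44 and 5.11 with vehicle. Its 2 highest T-cell values were those of the arrays in which macrophage markers were also highest, and the part of such transcripts in these values was not tested. Leaving out the T-cell 2 h array 1 gave a Retnla difference of 6.65. Of the macrophage arrays, Arg1, Retnla and Ccl24 were above the upper quartile of the array on 10 of 10, whereas Mrc1 was above it on 2 of 10 and above the median on 9.

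**Figure D1:**
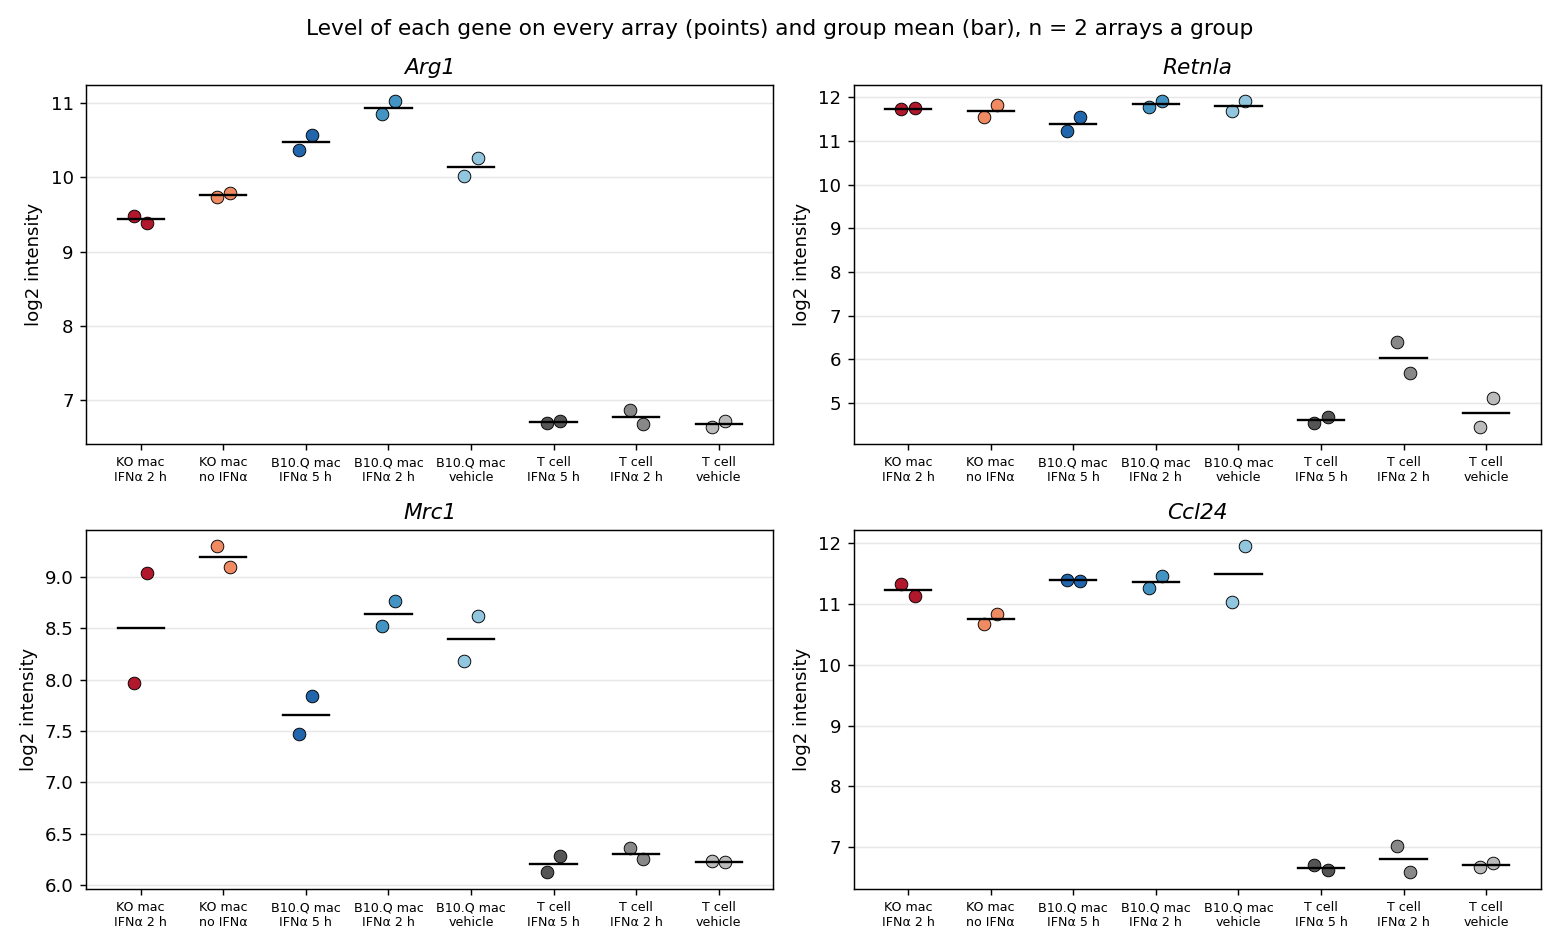
Log2 intensity (vertical axis) of each gene on every array (points) with the group mean (bar, n = 2 arrays), in KO and B10.Q macrophages (mac) and B10.Q T cells (horizontal axis). Arg1 lay at 9.39 to 9.79 on the KO arrays and at 10.02 to 11.02 on the B10.Q macrophage arrays; Retnla in macrophages stayed within 11.22 to 11.91.

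Arg1 was the only member called in any of the 7 comparisons between macrophage groups. It read 9.48 and 9.39 in KO macrophages after IFNα and 9.73 and 9.79 in KO macrophages without IFNα. In B10.Q macrophages it read 10.37 and 10.57 at 5 h, 10.85 and 11.02 at 2 h, and 10.02 and 10.26 with vehicle. From low to high the groups ran KO with IFNα, KO without, B10.Q vehicle, B10.Q at 5 h and B10.Q at 2 h, and the arrays of no 2 neighbouring groups overlapped. The share of all tested genes with such separation was not counted, and groups of 2 arrays can separate easily without a difference. Here and below, statements on overlap of arrays therefore only describe the values.

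At 2 h after IFNα, Arg1 rose in B10.Q macrophages by 0.79 ± 0.13 (SE, n = 2 each), a 1.73-fold level, with limma's adjusted p = 0.0182 and an interval of 0.51 to 1.08. It was 1 of 4 members called, against 0.798% of 10531 genes called higher. Both 2 h arrays were also above the vehicle array of the same hour, by 0.83 and 1.00. The call is not kept when any 1 of the 4 arrays is left out: the difference then lay between 0.68 and 0.91 and limma's adjusted p between 0.0709 and 0.269. Peritoneal macrophage markers averaged 12.30 and 12.33 on the 2 h arrays and 12.31 on both vehicle arrays. The part of cell composition in the Arg1 rise was not tested. In bulk samples such as these, more cells of a type and more RNA per cell cannot be told apart.

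By 5 h the Arg1 level was 0.33 ± 0.13 above vehicle, with limma's adjusted p = 0.984, and 0 of 4 members were called where 0.836% of all genes were. The 5 h arrays lay above the 5 h vehicle array by 0.11 and 0.31, against 0.83 and 1.00 at 2 h above the 2 h vehicle array. The difference of 5 h minus 2 h was -0.47 ± 0.13 and was not called (adjusted p = 0.904, limma). Between these times 0 of 4 members and 0.0095% of 10531 genes were called, the single gene being Pde7b, and 529 genes had an unadjusted p under 0.05, where 0.05 of the genes tested is 527.

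In KO macrophages Arg1 was not higher after IFNα: the difference was -0.32 ± 0.13 (SE, n = 2 each; adjusted p = 0.9996, limma), with both IFNα arrays below both arrays without it. No member was called (0 of 4), and neither was any gene (0.0% of 10531, limma). An unadjusted p under 0.05 was found for 460 genes, and 0.05 of the genes tested is 527. The response at 2 h itself differed between the lines, by -1.12 ± 0.18 for KO minus B10.Q (interval -1.53 to -0.71; adjusted p = 0.03, limma). Arg1 was 1 of 4 members called in this difference of responses, where 0.408% of genes were called lower. The call was lost with quantile normalization (adjusted p = 0.0507, limma), in a fit of the compared groups alone (0.0574), and on leaving out 6 of the 8 arrays in turn (0.0742 to 0.205). The difference stayed between -1.24 and -1.0 under every alternative run.

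Arg1 was also lower in KO than in B10.Q macrophages over all arrays, by -0.92 ± 0.083 (SE, 4 KO against 6 B10.Q arrays; adjusted p = 1.84e-04, limma), which is 0.529-fold. Of the 4 members it was the 1 called, against 5.22% of genes called lower. The highest KO array read 9.79 and the lowest B10.Q array 10.02. Without KO IFNα array 1 the difference was -0.94, and over all 18 alternatives it lay between -0.97 and -0.84, called each time. However, 4 of the 6 B10.Q arrays had received IFNα, and all 7 interferon control genes were lower in KO over the same arrays, with a median of -2.84. Neutrophil marker means were higher on every KO array than on every B10.Q macrophage array, and B-cell means were highest on array 1 of each KO pair; their part in the Arg1 difference was not tested. Between KO without IFNα and B10.Q vehicle, Arg1 differed by -0.38 ± 0.13, which was not called (adjusted p = 0.296, limma).

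**Figure D2:**
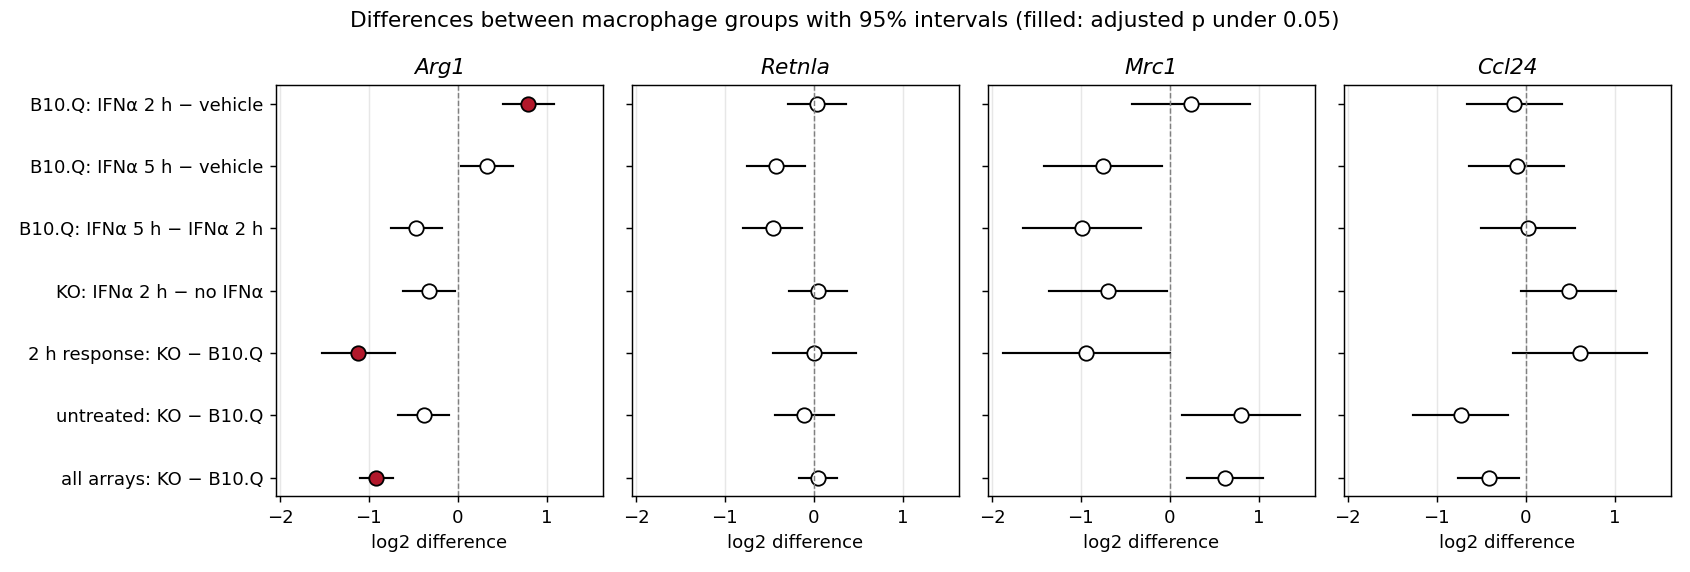
Log2 difference (horizontal axis) with its 95% interval for each gene in 7 comparisons of macrophage groups (vertical axis), the first-named group minus the second; filled points have an adjusted p under 0.05 in limma. The 3 filled points all belong to Arg1, at 0.79, -1.12 and -0.92.

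Retnla was the steadiest of the 4 in macrophages, spanning 0.69 log2 units over 10 arrays. It read 11.73 and 11.75 in KO macrophages after IFNα and 11.56 and 11.83 without. The B10.Q values were 11.22 and 11.54 at 5 h, 11.77 and 11.91 at 2 h, and 11.69 and 11.91 with vehicle. Only the 5 h group lay below the arrays of its next higher neighbour; the other 4 groups overlapped in order.

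The Retnla difference from vehicle was 0.04 ± 0.15 at 2 h (interval -0.29 to 0.37). At 5 h it was -0.42 ± 0.15 (adjusted p = 0.731, limma), and both 5 h arrays lay below both vehicle arrays. The 5 h arrays were 0.69 and 0.37 lower than the vehicle array of that hour. Set against 2 h, the 5 h level differed by -0.46 ± 0.15 (adjusted p = 0.904, limma). None of these passed the test.

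Between the lines, Retnla differed by 0.04 ± 0.10 for all KO minus all B10.Q arrays, with an interval of -0.17 to 0.26. IFNα in KO macrophages gave 0.05 ± 0.15 (interval -0.28 to 0.38). The difference of responses at 2 h was 0.01 ± 0.21, and the sign of each of these small values changed on leaving out single arrays. The rest of the resistin family, Retn, Retnlb and Retnlg, was not above the array median on 2 arrays of the macrophage fit and was not tested.

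Mrc1 varied more than the other members, from 7.47 to 9.30 over the macrophage arrays. It read 7.97 and 9.04 in KO macrophages after IFNα and 9.30 and 9.10 without. In B10.Q macrophages it read 7.47 and 7.84 at 5 h, 8.52 and 8.77 at 2 h, and 8.18 and 8.62 with vehicle. The B10.Q 5 h group was the lowest and the KO group without IFNα the highest, and neither overlapped its neighbour in order. The 3 groups between them overlapped.

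No Mrc1 difference between macrophage groups was called. At 5 h it was -0.99 ± 0.30 against 2 h (adjusted p = 0.904, limma) and -0.75 ± 0.30 against vehicle (adjusted p = 0.9998), with 1.16 and 0.78 lower values than the 5 h vehicle array. In a fit of the 5 h and 2 h groups alone the first of these was called (adjusted p = 0.00601, limma). At 2 h the difference from vehicle was 0.24 ± 0.30.

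The KO values of Mrc1 turned on IFNα array 1, the macrophage array with the lowest macrophage marker mean and the highest B-cell marker mean (11.87 and 7.69). Its intensities were also the least spread. The ratio of its upper to its lower quartile was 5.489, against 6.055 to 7.525 on all other arrays. The part of this narrower spread in its marker and Mrc1 values was not tested. IFNα minus none was -0.70 ± 0.30 on all 4 KO arrays (adjusted p = 0.9996, limma). It was -0.16 without that array and -1.23 without array 2 (adjusted p = 0.00529, limma). All KO minus all B10.Q gave 0.62 ± 0.19 (adjusted p = 0.0757, limma), and 0.89 without array 1 (adjusted p = 8.74e-04). KO without IFNα minus B10.Q vehicle gave 0.80 ± 0.30 (adjusted p = 0.35, limma), with the KO pair above both vehicle arrays. The 9 markers of small peritoneal or monocyte-derived macrophages averaged 8.01 to 8.50 on the KO arrays and 7.26 to 7.58 on the B10.Q arrays. Of the 7 tested, 3 were called higher in KO over all arrays, where 2.61% of all genes were. These were H2-Ab1 at 3.15 ± 0.15, H2-Eb1 at 1.77 ± 0.11 and Fcrls at 0.78 ± 0.09. H2-Ab1 and H2-Eb1 differed most of the 7, so the gap in the marker mean rests largely on them. The lines differ in strain, and its part in the values of H2-Ab1 and H2-Eb1 was not tested. Fcrls was above the array median on only 2 of 10 macrophage arrays. Ciita, Ccr2, Cx3cr1 and Irf4 were not called, at 0.55, 0.25, 0.19 and 0.15. Cd226 and Plac8 were above the median on none of the macrophage arrays. KO array 1 without IFNα, with a B-cell mean of 7.43, held the highest Mrc1 level, 9.3. The part of the small peritoneal or monocyte-derived, B-cell and neutrophil markers in the Mrc1 values was not tested.

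Ccl24 read 11.34 and 11.14 in KO macrophages after IFNα and 10.68 and 10.84 without. The B10.Q values were 11.40 and 11.38 at 5 h, 11.26 and 11.47 at 2 h, and 11.04 and 11.95 with vehicle. The KO pair without IFNα was the lowest group and did not overlap its neighbour, while the other 4 groups overlapped in order. The vehicle pair, 1 array at each hour, spanned the values of both IFNα groups.

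After IFNα, Ccl24 in B10.Q macrophages differed from vehicle by -0.13 ± 0.24 at 2 h (interval -0.66 to 0.41) and by -0.10 ± 0.24 at 5 h. Set against the vehicle array of the same hour, the 2 h arrays were 0.23 and 0.43 higher and the 5 h arrays were 0.55 and 0.56 lower. In KO macrophages IFNα minus none was 0.48 ± 0.24, with the IFNα arrays above the others and no call (adjusted p = 0.9996, limma). The difference of responses was 0.61 ± 0.34 (adjusted p = 0.939, limma).

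Ccl24 in KO macrophages without IFNα was -0.73 ± 0.24 relative to B10.Q vehicle (adjusted p = 0.289, limma), and the 4 arrays did not overlap. In this comparison 0 of 4 members were called, where 0.541% of 10531 genes were. Without vehicle array 1 the difference was -1.19 and was called (adjusted p = 0.0305, limma). Over all arrays it was -0.42 ± 0.15 for KO minus B10.Q (adjusted p = 0.117, limma), or -0.57 without that vehicle array (adjusted p = 0.0124). Eosinophil marker means, the cells that eotaxins attract, lay at 7.84 to 8.0 on the KO arrays and 7.84 to 7.99 on the B10.Q arrays. Of these 9 markers, 6 (Epx, Prg2, Prg3, Ear6, Il5ra and Ccr3) were below the array median on every macrophage array, and Siglecf was above it on 1. Alox15, also listed as a peritoneal macrophage marker, and Adgre4 were above it on all 10, at 13.54 to 13.96 and 11.07 to 11.78. Adgre4 was called lower in KO over all arrays, at -0.41 ± 0.09 (adjusted p = 0.0243, limma), and its part in the Ccl24 values was not tested.

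Upstream of the members, Il4 was below the array median on all 10 macrophage arrays (6.74 to 7.05). Of 9 listed ligands only Il13, at 7.45 to 7.69, and Csf1, a macrophage growth factor, were tested, and neither was called in any macrophage comparison. The receptor chains Il4ra (9.65 to 10.23) and Il13ra1 (10.08 to 10.76) were above the median on every macrophage array. Of 11 tested receptor and signalling genes, 0 were called after IFNα at 2 h or 5 h in B10.Q or in KO macrophages. Shares over all genes were 0.798%, 0.836% and 0.0% in turn, so a count of 0 in a list this small is near them. Over all KO against all B10.Q arrays 1 of 11 was called, Il10ra, a chain of the IL-10 receptor, at -0.51 ± 0.13. That count is near the 7.83% of all 10531 genes called there in either direction (2.61% higher and 5.22% lower). The list median was -0.11 and that of all genes -0.02.

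Among 15 tested transcription factors of alternative activation, 0 were called after IFNα in either line. This is near the shares over all genes, 0.798% at 2 h and 0.836% at 5 h in B10.Q and 0.0% in KO. The list median at 2 h in B10.Q was -0.05. Klf4, which acts with STAT6, read 9.85 and 9.65 at 5 h, 10.16 and 9.74 at 2 h, and 9.19 and 9.53 with vehicle, with 0.59 ± 0.17 at 2 h (adjusted p = 0.332, limma). In KO against B10.Q over all arrays, 2 of 15 were called lower, where 5.22% of all genes were: Klf4 at -0.89 ± 0.11 and Bhlhe40, a repressor needed for macrophage proliferation under IL-4, at -0.56 ± 0.13. Pparg was at 0.38 ± 0.10 (adjusted p = 0.0532, limma) and the list median at 0.02.

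Of 29 other genes listed as alternative activation targets, 27 had a probe set and 16 were tested. The 11 untested ones, below the array median on all macrophage arrays, included Chil3, which encodes the chitinase-like protein Ym1, its relative Chil4, and the chemokines Ccl17 and Ccl22. After IFNα 0 of 16 were called in B10.Q at 2 h or 5 h or in KO macrophages, with list medians of 0.08, -0.11 and -0.02. Such a count is near the shares over all genes, which were 0.798%, 0.836% and 0.0% in turn. Nearest to a call was Folr2, a folate receptor of tissue macrophages, at -0.75 ± 0.15 for 5 h minus vehicle (adjusted p = 0.0509, limma). It read 8.57 and 8.56 at 5 h, 9.42 and 9.73 at 2 h, and 9.17 and 9.47 with vehicle, an order shared with Mrc1.

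Folr2 was higher in KO than in B10.Q macrophages. It read 10.70 and 10.52 in KO with IFNα and 10.71 and 10.81 without, above every B10.Q array. The difference was 1.44 ± 0.15 between KO without IFNα and B10.Q vehicle (adjusted p = 0.00155, limma), where Folr2 was 1 of 16 called higher and 0.266% of all genes were. Over all arrays 2 of 16 were called higher, against 2.61% of all genes, Folr2 at 1.53 ± 0.09 and F13a1, a clotting factor chain made by macrophages, at 1.09 ± 0.22. Another 2 were called lower, against 5.22% of all genes, the β-glucan receptor Clec7a at -0.57 ± 0.10 and the arginine transporter Slc7a2 at -0.47 ± 0.11. The list median was -0.11. Without KO IFNα array 1 the counts were 4 higher and 2 lower.

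**Figure D3:**
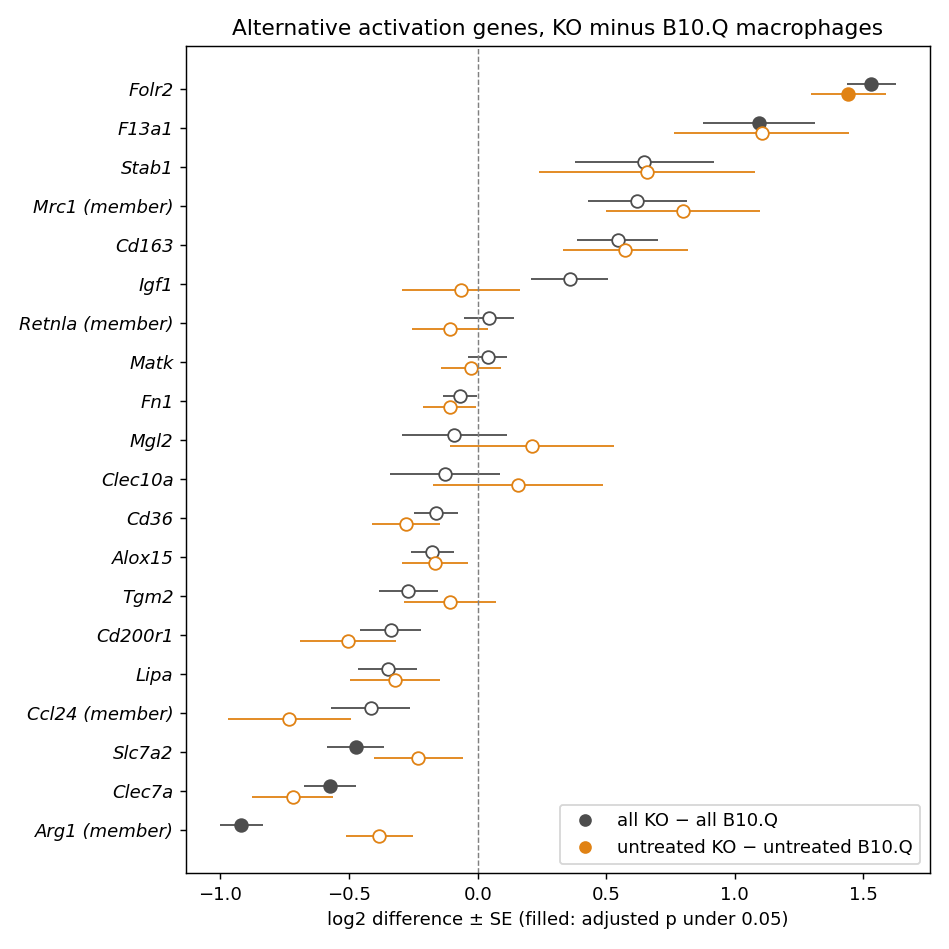
Log2 difference (horizontal axis) with its SE for the 4 members and 16 other alternative activation genes (vertical axis), KO minus B10.Q, over all arrays (dark) and between KO without IFNα and B10.Q vehicle (orange); filled points have an adjusted p under 0.05 in limma. Genes fell on both sides of 0, with Folr2 at 1.53 and Arg1 at -0.92 over all arrays.

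Around Arg1, 13 other genes of arginine and polyamine metabolism were tested. Arg2, the mitochondrial arginase, read 6.00 to 6.37 and Nos2, which makes nitric oxide from arginine, 6.81 to 7.16, both below the array median on all macrophage arrays and not tested. None of the 13 was called after IFNα in either line, with list medians of 0.0 at 2 h and 0.12 at 5 h in B10.Q. Few genes of any kind were, 0.798% at 2 h and 0.836% at 5 h in B10.Q and 0.0% in KO. Over all KO against all B10.Q arrays, Slc7a2 was called lower, and Oat, which turns ornithine into a proline precursor, and Srm, spermidine synthase, were called higher at 0.37 ± 0.08 and 0.31 ± 0.08. That is 1 of 13 lower, where 5.22% of all genes were, and 2 of 13 higher, where 2.61% were. Without KO IFNα array 1 there were 2 higher and 3 lower.

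Around Mrc1, 15 other endocytic lectins and scavenger receptors were tested, with 0 called after IFNα in either line. Again this is near the shares over all genes, 0.798% at 2 h and 0.836% at 5 h in B10.Q and 0.0% in KO. Cd209f, a lectin of the DC-SIGN family, was called higher in KO at 2.03 ± 0.32 without IFNα against vehicle, and at 1.65 ± 0.20 over all arrays. It was above the array median on only 3 of 10 macrophage arrays (5.55 to 8.8), so these differences rest partly on values below the median. Clec7a and Cd209b, at -0.43 ± 0.10, were called lower over all arrays. These are 1 of 15 higher against 2.61% of all genes, and 2 of 15 lower against 5.22%. Without KO IFNα array 1 the calls were 2 higher and 4 lower. Cd163, a haemoglobin scavenger receptor, was at 0.54 ± 0.16 (adjusted p = 0.0624, limma). The relatives of Mrc1 in its own receptor family, Mrc2, Pla2r1 and Ly75, were below the array median and not tested.

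Around Ccl24, the eotaxins Ccl11 and Ccl26 and 7 other listed genes, Ccr3 among them, were not above the median on 2 macrophage arrays and were not tested. Of 5 tested chemokines 1 was called higher at 2 h in B10.Q, where 0.798% of all genes were. That gene was Ccl2, which attracts monocytes, at 2.30 ± 0.42 (adjusted p = 0.0354, limma). It read 10.67 and 9.03 at 2 h against 7.50 and 7.60 with vehicle. Over all KO against all B10.Q arrays, Ccl3 was 1 of 5 called lower (5.22% of all genes), at -0.64 ± 0.11, and without KO IFNα array 1 there were 2 lower calls. Of 6 tested classical activation genes 0 were called after IFNα in either line, where 0.798% at 2 h, 0.836% at 5 h and 0.0% in KO of all genes were. Over all arrays 2 of 6 were called lower in KO, against 5.22% of all genes. These were Il6 at -1.68 ± 0.25 and the co-stimulatory gene Cd86 at -0.63 ± 0.13. Il6 was above the array median on only 3 of 10 macrophage arrays (5.16 to 8.35), so its difference rests partly on values below the median. The 7 interferon control genes were all called higher in B10.Q at 2 h and at 5 h, where 0.798% and 0.836% of all genes were. Their median was 4.34 at each time, and 0 were called in KO (0.0% of all genes). Mx1, Ifit1, Rtp4 and Usp18 were above the array median on only 4 of 10 macrophage arrays. The differences of these genes therefore rest partly on values below the median.

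The members were alike to different degrees. Over the 10 macrophage arrays, which share strain and treatment groups, Pearson's r was 0.587 between Retnla and Mrc1, 0.446 between Arg1 and Ccl24, -0.266 between Arg1 and Mrc1 and -0.439 between Mrc1 and Ccl24. The remaining pairs were at 0.033 and 0.188. Among 967 genes spanning at least 1 log2 unit, those most like Arg1 were Ccl3 (r = 0.914), Ccnyl1, Pim1, Slfn2 and Gm8995 (0.906 each). Mrc1 was followed by Fcna (0.935), which encodes a ficolin, Igfbp4 (0.907), Mmp9 (0.894), Cbr2 (0.872) and Stab1 (0.869). Nearest to Ccl24 were Cd86 (0.832), Clec5a (0.811), Nr4a1 (0.800), Clec7a (0.768) and Pigp (0.761). For Retnla the nearest genes were weaker matches, led by Nxpe5 (0.683), Aldh1a2 (0.632), Ccr2 (0.616), Marcksl1 (0.604) and Emp1 (0.590). These are descriptions over 5 groups of 2 arrays.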

How the data were processed

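Per the submitters' processing notes, the authors used Affymetrix Power Tools and RMA, whose versions are not given in the sources used here. The deposited values are intensities on a linear scale, and the log2 of each deposited intensity was used without further scaling. The sources do not say if the 16 arrays formed a single normalisation. Precision is limited by their number. Of 24922 probe sets, 21425 carried 1 gene symbol, 1399 several and 2098 none, and the highest probe set stood for a gene with several. Testing required a gene to exceed the array's own median on 2 or more of the fitted arrays. limma 3.58.1 in R 4.3.3 (lmFit, eBayes, two-sided) was fitted to the 10 macrophage arrays in 5 groups, and to the 12 B10.Q arrays for macrophages against T cells. Benjamini-Hochberg adjustment was applied separately to each of 8 comparisons, and intervals are 95%. The procedure was tested on simulated data. Replicate numbers were not taken to pair the arrays: deviations of same-numbered arrays correlated at -0.218 to 0.362. Named genes were the members, every called gene of each list with up to 4 of the largest differences per direction, and the 5 genes most correlated with each member. The members and lists were chosen with earlier results of these data known. Promoters and loci come from RefSeq tables of GRCm38.p6. A further motif that was searched is not reported here.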

Additional observations from a re-analysis of the deposited data

Results flagged for a closer look

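The 2 h response of Arg1 to IFNα differed between KO and B10.Q macrophages by -1.12 ± 0.18 on the log2 scale (adjusted p = 0.03, limma's interaction term). That call was kept under 9 alternatives and lost under 8, quantile normalization among them. The KO part of it, -0.32 ± 0.13, was not called (adjusted p = 0.9996, limma). Both KO IFNα arrays lay below both KO arrays without IFNα, and both B10.Q IFNα arrays lay above both vehicle arrays. Line, strain, age and submission lot cannot be told apart here, and the treatment of the KO pair without IFNα in its title is uncertain.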

How the results depend on the processing

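Alternatives were other filters, quantile normalization, subtracted array medians, a trend and robust variance, every probe set, a replicate block, other groups in the fit, and leaving out each array in turn. The number of members called with single arrays left out was 0 to 1 for KO IFNα against none, 0 for B10.Q 2 h against vehicle, 0 to 1 for KO without IFNα against B10.Q vehicle, 1 to 2 for all KO against all B10.Q and 0 to 2 for the difference of responses. A fit of the compared groups alone called 1 at 5 h against 2 h and 0 in the difference of responses, and quantile normalization called 0 there. For all KO against all B10.Q the replicate block called 2 and the fit of all 16 arrays 2, the added gene being Mrc1 (adjusted p = 0.0455 with the block and 0.0277 with all arrays). The block changed no other members' call, and a crossed block, added after seeing the data, called 0 genes in KO. A stricter filter, at the 70th percentile, left 3 members tested and called against T cells, without Mrc1.

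Small differences changed sign. Retnla over all arrays was -0.01 with subtracted medians. With single arrays left out it ranged from -0.09 to 0.18 for KO IFNα, -0.07 to 0.15 at 2 h, -0.24 to 0.03 between the groups without IFNα, -0.02 to 0.11 over all arrays and -0.13 to 0.14 in the difference of responses. Ccl24 ranged from -0.58 to 0.33 at 2 h, -0.56 to 0.35 at 5 h and -0.08 to 0.13 for 5 h against 2 h.

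Leaving out an array leaves a group with 1, assumed to vary like the others. Over the alternatives, the number of all genes called ranged from 0 to 1191 for KO IFNα (0 in the reported fit, 1191 without KO IFNα array 2), 36 to 123 at 2 h (84 reported), 29 to 203 at 5 h (88), 1 to 40 for 5 h against 2 h (1), 21 to 198 between the groups without IFNα (57), 281 to 4209 over all KO and B10.Q arrays (825) and 8 to 491 in the difference of responses (43).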
